A study of Mus musculus with 13 samples.

Results

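The Hox genes described here were the 39 genes of the mouse Hox A, B, C and D clusters, taken as every gene in the count data whose symbol reads Hoxa, Hoxb, Hoxc or Hoxd followed only by digits, of 49315 genes in all. They were followed in 6 RNA-Seq libraries of full-thickness back skin at postnatal day 4 (P4), 3 from WT mice and 3 from K14Cre+Kctd1fl/flKctd15fl/fl littermates (DKO), in which a keratin 14 promoter drives Cre in keratinocytes and deletes floxed parts of Kctd1 and Kctd15. Cells of the dermis, where no keratin 14 promoter is active, keep both genes in these mice, and the labels state no alleles for the WT mice. The labels do not say whether each library is a single mouse, so the p-values measure the spread between these libraries. The series also holds 7 libraries of epidermis from 3-week-old mice, whose files list 0 for every gene, and these were not analysed here. Levels are given per length as RPKM, the reads of a gene divided by the length of its counted exons in kilobases and by the scaled library total.

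HOX proteins are homeodomain transcription factors that tell cells where they lie along the head-to-tail axis. The genes of a cluster lie in the order in which they are used along that axis, with low paralog numbers toward the head and high numbers toward the tail, so a tissue's set of active Hox genes records its position. Fibroblasts of the dermis keep such a code after birth. Hoxc13 is an exception to the positional rule in skin, since it is active in the matrix of hair follicles at many body sites and controls hair keratin genes.

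Library totals ran from 11263863 to 17643043 counts, so that 3 counts, taken as the floor of a library, stood for 0.170 to 0.266 CPM, the unit of counts scaled to the library total. The gene-level counts of the targeted genes were not lower in the libraries labelled DKO. Kctd15 lay at 11.4 to 11.9 RPKM in WT and 17.6 to 23.5 RPKM in DKO, and Kctd1 at 7.53 to 8.14 RPKM in WT and 9.30 to 18.1 RPKM in DKO. These counts include the exons outside the deleted part and the cells without Cre, so they do not check the genotype, and WT and DKO are used below as the labels give them. The summed levels of skin markers were high in all 6 libraries, and no member of either list was at the floor in every library. The summed level of 8 keratinocyte markers was 2795 to 2968 RPKM in WT and 3504 to 4774 RPKM in DKO, and that of 10 dermal fibroblast markers was 2036 to 2559 RPKM in WT and 2331 to 3458 RPKM in DKO. The titles carry a number, 47347 for WT replicates 1 and 2 and DKO replicates 2 and 3, and 40972 for WT replicate 3 and DKO replicate 1. What the number marks is not stated in the labels. WT replicate 3 stood apart from the other libraries in its Hox genes, so values without it are given beside the fold changes that it moved.

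The 4 clusters lay on separate chromosomes of GRCm38. The Hox A cluster, with 11 genes, spanned 105 kb of chromosome 6 from position 52155590 to 52260880. The Hox B cluster, with 10 genes, spanned 174 kb of chromosome 11 from 96194316 to 96368256. The 9 genes of the Hox C cluster lay within 116 kb of chromosome 15, from 102921103 to 103036852, and the 9 genes of the Hox D cluster within 97 kb of chromosome 2, from 74668310 to 74765142. Several members share exons with neighbours or with antisense genes, among them Hoxd3 and Hoxd4, which share 62.3% and 52.3% of their counted length with genes on the same strand, and Hoxb3, with 52.9% shared with an antisense gene. Reads in a length shared on the same strand cannot be told apart under any strand setting. The strand setting of the counting was not stated, so the same may hold for antisense pairs. How reads in shared exons were counted was not stated either, so the levels of these genes are uncertain.

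The RefSeq promoters of 3 members are shown because the members differ in the WT libraries described below: Hoxa2, an anterior gene of similar level in these libraries, and Hoxa9 and Hoxb8, posterior genes whose level differed widely between the WT libraries. Each run holds the 250 bases before the start in GRCm38.p6, read 5′ to 3′ along the gene. Capitals mark the letters TGATTNAT, in which PBX and HOX proteins are known to bind side by side, and TTTATG, the letters known for caudal-type (CDX) factors, on either strand.
Hoxa2, minus strand, chr6:52164832-52165081: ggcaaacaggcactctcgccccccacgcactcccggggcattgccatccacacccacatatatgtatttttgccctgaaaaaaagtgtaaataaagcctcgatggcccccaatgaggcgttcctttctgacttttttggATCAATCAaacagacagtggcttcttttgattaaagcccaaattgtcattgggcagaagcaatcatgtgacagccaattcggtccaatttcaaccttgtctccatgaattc
Hoxa9, minus strand, chr6:52227371-52227620: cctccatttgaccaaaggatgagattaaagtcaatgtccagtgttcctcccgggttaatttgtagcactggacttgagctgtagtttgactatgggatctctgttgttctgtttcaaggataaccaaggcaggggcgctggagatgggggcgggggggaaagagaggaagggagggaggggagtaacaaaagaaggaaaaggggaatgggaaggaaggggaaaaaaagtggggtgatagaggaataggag
Hoxb8, plus strand, chr11:96281655-96281904: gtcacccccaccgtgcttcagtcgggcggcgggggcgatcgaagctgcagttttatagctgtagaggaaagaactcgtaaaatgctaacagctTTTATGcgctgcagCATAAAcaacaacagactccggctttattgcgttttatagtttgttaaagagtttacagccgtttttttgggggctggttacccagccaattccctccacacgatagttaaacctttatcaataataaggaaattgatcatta

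In all, 22 Hox genes had a RefSeq promoter, with 24 starts between them. TTTATG stood in 5 of these 24 windows (Hoxa7, Hoxb8, Hoxd3, Hoxd4 and Hoxd11), beside 10.8% of all 32851 promoters, and TGATTNAT stood in 2 (Hoxa2 and Hoxd11), beside 2.8%. The TATA box letters TATAAA, which do not overlap the marked letters in Hoxb8, stood in 4 windows, beside 12.4%. The windows were rich in CpG, with a median of 12.5 CpG and a range of 2 to 35, against a median of 6.0 in all promoters. These matches describe the letters only.

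In WT skin, Hox genes of the anterior and middle groups were active and those of the most posterior groups were near 0, apart from Hoxc13. Of the 39 genes, 25 were above the floor in every WT library, and 29 were above it in WT replicates 1 and 2. Of the paralogs 1 to 5, 13 of 15 members passed the filter on low counts, and of the paralogs 6 to 10 all 15 did. Of the 9 members of the paralogs 11 to 13, only Hoxc13 passed. The 10 genes that did not pass were Hoxa11, Hoxa13, Hoxb1, Hoxb13, Hoxc11, Hoxc12, Hoxd1, Hoxd11, Hoxd12 and Hoxd13. Hoxb13, a gene of the tail region, had 0 counts in all 6 libraries, and Hoxa13 and Hoxd13, which act in digits and the genital tubercle, had 0 counts in all 3 WT libraries.

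**Figure D1:**
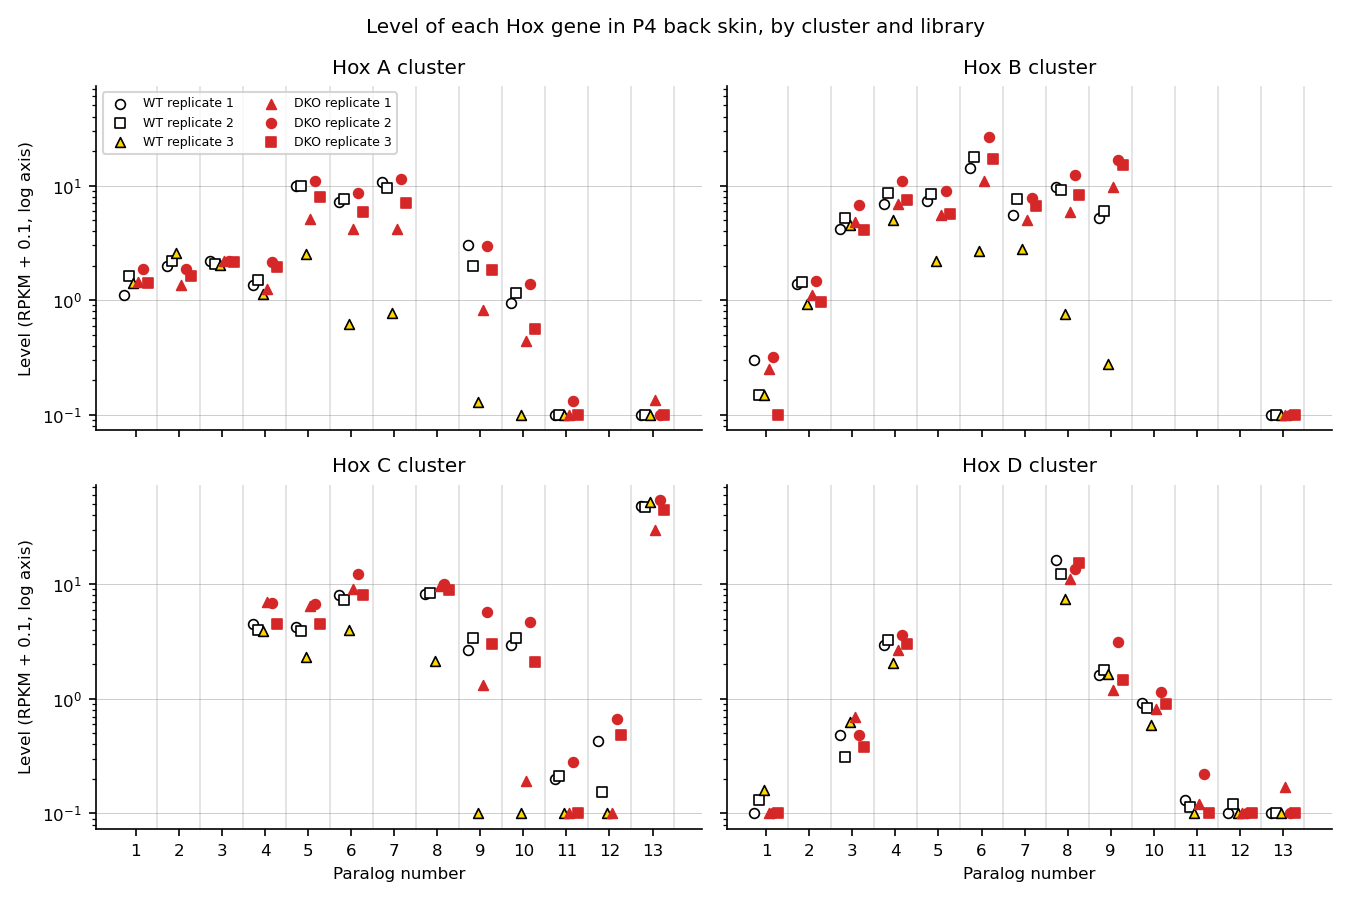
Level of the 39 Hox genes in RPKM + 0.1 on a log axis, by paralog number and with 1 panel per cluster; each point is 1 library, WT open or yellow and DKO red. WT replicate 3 (yellow triangles) lay below the other libraries for most paralogs from 5 to 10 of the A, B and C clusters, while Hoxc13 was the highest Hox gene in every library.

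Hoxc13 was the Hox gene with the highest level, at 48.4, 47.3 and 52.5 RPKM in WT replicates 1, 2 and 3. Its WT mean of 49.4 ± 2.73 RPKM (SD, n = 3) was well clear of the next gene, Hoxd8, at 11.8 ± 4.34 RPKM. From Hoxd8 downward the order of neighbours was not separated by their spread, as in Hoxb6 (11.4 ± 7.84 RPKM), Hoxa5 (7.32 ± 4.26 RPKM), Hoxa7 (6.91 ± 5.45 RPKM), Hoxb4 (6.73 ± 1.81 RPKM) and Hoxb8 (6.40 ± 4.98 RPKM). The large SDs of these genes came with WT replicate 3, which held the lowest value in each of them.

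In the Hox A cluster the highest levels belonged to the middle genes Hoxa5, Hoxa6 and Hoxa7, known for patterning the neck and thorax. Hoxa5 lay at 9.80, 9.74 and 2.40 RPKM in the WT replicates, Hoxa6 at 7.14, 7.55 and 0.516 RPKM, and Hoxa7 at 10.7, 9.35 and 0.666 RPKM. The first and second replicates were close to each other in all 3 genes, and the third was far below both. Anterior neighbours were lower and steadier, such as Hoxa2, a gene of the hindbrain and second pharyngeal arch, at 1.89, 2.08 and 2.48 RPKM, and Hoxa3 at 2.09, 1.96 and 1.91 RPKM. Toward the posterior end, Hoxa9 gave 241, 187 and 3 counts and Hoxa10, which marks the lumbar region, gave 41, 62 and 0 counts.

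In the Hox B cluster the leading genes were Hoxb6, Hoxb8 and Hoxb4. Hoxb6 lay at 14.2, 17.5 and 2.58 RPKM, Hoxb8 at 9.53, 9.02 and 0.663 RPKM, and Hoxb4, a neck-level gene, at 6.80, 8.50 and 4.88 RPKM. Again WT replicate 3 was lowest, by far the least so in the most anterior of the 3. Hoxb9, a gene of the thorax and the last active gene of this cluster, gave 196, 269 and 8 counts.

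In the Hox C cluster Hoxc8, which patterns the lower thorax, lay at 8.09, 8.25 and 2.03 RPKM, and Hoxc6 lay at 7.98, 7.15 and 3.86 RPKM. Hoxc9 gave 93, 143 and 0 counts and Hoxc10 gave 81, 113 and 0 counts. Both genes were thus not detected in WT replicate 3, whose floor of 3 counts put it at least 42.1-fold below the mean of the other WT replicates for Hoxc9 and at least 34.8-fold below for Hoxc10. At the far end of the same cluster, Hoxc13 was at its highest WT value in this library.

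The Hox D cluster, best known for limb and genital patterning, was led by Hoxd8, at 16.0, 12.1 and 7.33 RPKM, followed by Hoxd4, at 2.85, 3.15 and 1.97 RPKM, and Hoxd9, at 1.51, 1.68 and 1.53 RPKM. The place of Hoxd4 in this order carries the limit of shared exons given above. In WT replicate 3, Hoxd8 was 1.91-fold and Hoxd4 1.52-fold below the mean of the other WT replicates, beside 1.96-fold for Hoxc6. Hoxd9 was only 1.04-fold below, while its A, B and C paralogs were at 8 counts or fewer in that library.

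With the clusters pooled, the difference of WT replicate 3 from the other WT libraries grew with paralog number. Relative to the mean of WT replicates 1 and 2, with counts under 3 set to the floor, the log2 level in WT replicate 3 had a median of -0.01 over the tested paralogs 1 to 3, -0.65 over paralogs 4 and 5, -2.31 over paralogs 6 to 8 and -4.97 over paralogs 9 and 10. Of the 15 paralogs 6 to 10, all were lower in WT replicate 3, 10 of them more than 4-fold. By cluster, the median over these paralogs was -4.06 in Hox A, -3.21 in Hox B, -3.56 in Hox C and -0.64 in Hox D. The Spearman rho of the values in WT replicate 3 with paralog number, without Hoxc13, was -0.97, -0.86, -0.94 and -0.5 in these clusters. DKO replicate 1, which carries the same number in its title, went the same way by less with the clusters pooled. Its medians were 0.03, -0.21, -0.47 and -1.27 over the same 4 groups of paralogs. By cluster, its median over paralogs 6 to 10 was -1.38 in Hox A, -0.47 in Hox B, -0.53 in Hox C and -0.35 in Hox D. Its Spearman rho with paralog number, without Hoxc13, was -0.92, -0.19, -1.0 and -0.4 in these clusters, and Hoxb9 was at 0.82. For DKO replicate 3, numbered 47347, the rho was -0.75 in Hox A and -0.71 in Hox C, but 0.74 in Hox B and 0.2 in Hox D. For DKO replicate 2, also numbered 47347, it was 0.18 in Hox A, 0.45 in Hox B, -0.26 in Hox C and 0.5 in Hox D. In DKO replicate 1, Hoxc10 gave 2 counts, against 120 and 58 counts in DKO replicates 2 and 3.

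**Figure D2:**
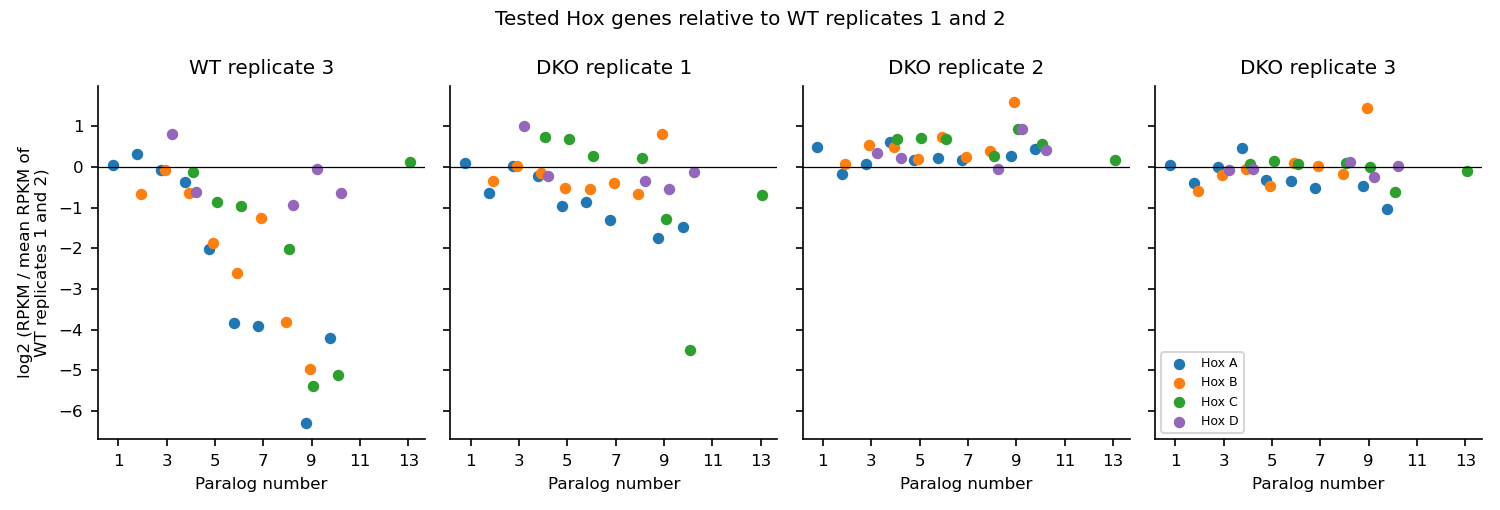
log2 of the level of each tested Hox gene in 4 libraries relative to the mean of WT replicates 1 and 2, against paralog number, coloured by cluster, with counts under 3 set to 3. In WT replicate 3, with the clusters pooled, the values fell with paralog number to a median of -4.97 over paralogs 9 and 10. No Hox D gene was lower than -0.94 there. In DKO replicate 1 a smaller fall was seen, clearest in Hox A and Hox C.

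As a share of the summed level of all Hox genes, paralogs 6 to 10 made up 49.9%, 49.4% and 21.5% in the WT replicates and 49.3%, 53.6% and 52.9% in the DKO replicates. The WT mean of 40.3% was 49.6% without WT replicate 3. In that library Hoxc13 and its paralogs 11 to 13 held 49.97% of the summed level, against 25.5% and 24.4% in the other WT replicates. Among tested Hox genes, 11 of 29 had a WT library more than 4-fold above another, beside 1.51% of all tested genes, and WT replicate 3 was the lowest in all 11: Hoxa5, Hoxa6, Hoxa7, Hoxa9, Hoxa10, Hoxb6, Hoxb8, Hoxb9, Hoxc8, Hoxc9 and Hoxc10. The median ratio of the highest to the lowest WT library was 2.18 over the tested Hox genes and 1.24 over all tested genes. WT replicate 3 had 17470709 counts, and its summed levels of cell type markers are given beside those of the other WT replicates. The 10 fibroblast markers summed to 2559 RPKM in it and to 2036 and 2315 RPKM in the others, the 8 keratinocyte markers to 2968 RPKM against 2795 and 2872 RPKM, and the 14 skeletal muscle markers to 678 RPKM against 688 and 604 RPKM. The 10 adipocyte markers were higher, at 648 RPKM against 448 and 430 RPKM, and no member of these 4 lists was at the floor in every library. Cartilage and bone markers summed to 39.3 RPKM against 48.8 and 49.7 RPKM, with 2 at the floor in every library. Immune cell markers summed to 98.7 RPKM against 87.3 and 82.4 RPKM. For endothelial markers the sums were 49.6 RPKM against 46.7 and 46.7 RPKM. For Schwann cell and neuron markers they were 82.1 RPKM against 85.4 and 86.4 RPKM, with 1 at the floor in every library. The exact site on the back from which each piece of skin was taken is not given in the labels. The parts of this site, of depth and of cell types in the difference were not tested.

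Between DKO and WT, no Hox gene passed the call. In edgeR's quasi-likelihood test, 0 of the 29 tested Hox genes had an adjusted p under 0.05 with an absolute log2 fold change above 1, beside 0.0694% of the 20168 genes tested, and the adjusted p ran from 0.458 to 0.989. DESeq2 also called 0. At an unadjusted p under 0.05, edgeR found 4 Hox genes higher in DKO, beside 4.96% of all genes, and 0 lower, beside 2.54%; DESeq2 found 3. The median log2 fold change of the tested Hox genes was 0.21, against 0.02 over all genes tested, and 0.02 without WT replicate 3. All 15 paralogs 6 to 10 had a positive log2 fold change, with a median of 0.29, but without WT replicate 3 only 7 of the 15 did, with a median of -0.04. Of the 13 tested paralogs 1 to 5, 11 had a positive value, and 8 without WT replicate 3. In whole skin, fewer cells of a type and less RNA per cell cannot be told apart.

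**Figure D3:**
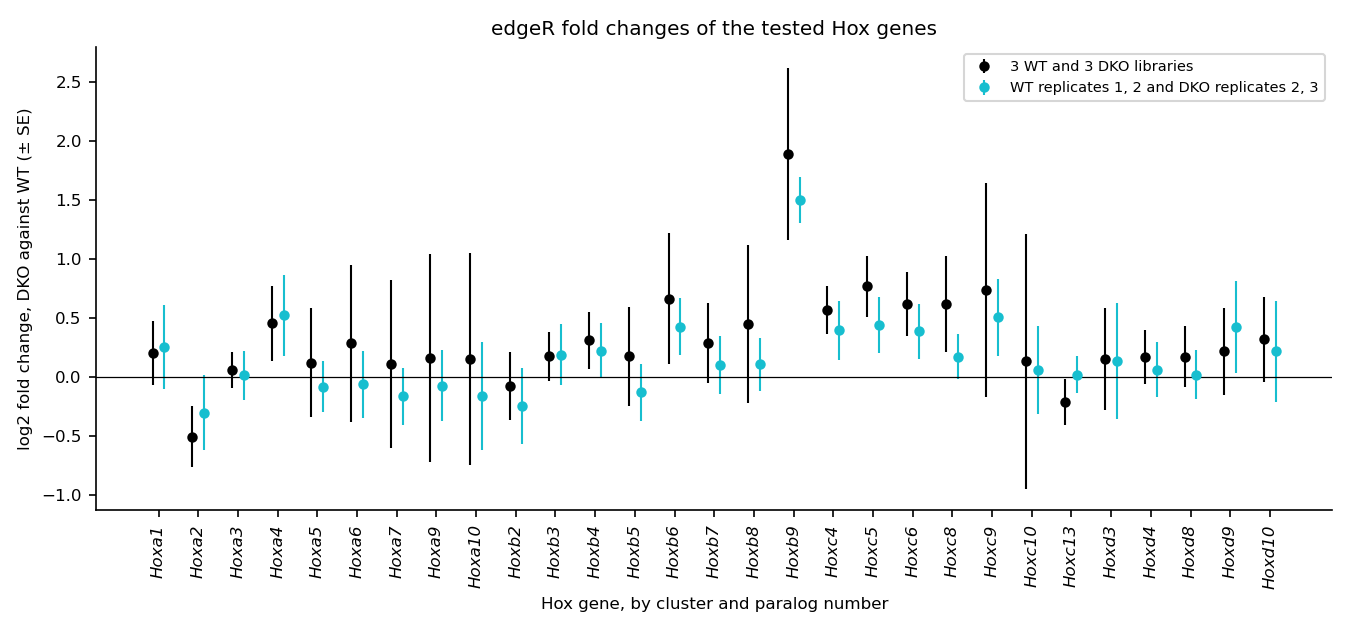
edgeR log2 fold change of the 29 tested Hox genes between DKO and WT, with an SE derived from the F statistic. Black marks all 6 libraries and cyan the 4 libraries numbered 47347. Over all 6 libraries most values lay within 1 SE of 0, and for most paralogs 6 to 10 of the A, B and C clusters the error bars were shorter without the libraries numbered 40972, where Hoxb9 stayed at 1.502 ± 0.20.

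The 4 genes with an unadjusted p under 0.05 were Hoxc5, Hoxc4, Hoxb9 and Hoxc6, of which 3 lie side by side at the anterior end of the Hox C cluster. Hoxc5 lay at 4.13, 3.84 and 2.21 RPKM in WT and at 6.36, 6.56 and 4.44 RPKM in DKO, so the groups did not overlap; 5.4% of its counted length is shared with Hoxc10. Its log2 fold change in edgeR was 0.77 ± 0.26 (SE), adjusted p = 0.458. Hoxc4 lay at 4.39, 3.90 and 3.82 RPKM in WT and 6.91, 6.74 and 4.37 RPKM in DKO, where the lowest DKO library fell just under the highest WT library (log2 fold change 0.57 ± 0.21, adjusted p = 0.510). Both genes act in neck and upper thoracic patterning. For Hoxc6 the DKO levels were 9.06, 12.2 and 7.95 RPKM, of which the last was just under WT replicate 1 (log2 fold change 0.62 ± 0.27, adjusted p = 0.647), and without WT replicate 3 its log2 fold change was 0.35 ± 0.22, beside 0.52 ± 0.22 for Hoxc5 and 0.52 ± 0.25 for Hoxc4. Without WT replicate 3, 2 of the 4 genes, Hoxb9 and Hoxc5, kept an unadjusted p under 0.05.

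In 3 Hox genes every DKO library was above every WT library, beside 7.24% of all tested genes, and in 1 every DKO library was below, beside 5.96%. Those above were Hoxb9, Hoxc5 and Hoxc8. Hoxc8 lay at 9.54, 9.90 and 8.80 RPKM in DKO, above the 8.25 RPKM of the highest WT library by little (log2 fold change 0.62 ± 0.41, adjusted p = 0.856). Without WT replicate 3 the log2 fold change of Hoxc8 was 0.19 ± 0.17. The gene below was Hoxa2, with 1.27, 1.76 and 1.51 RPKM in DKO against at least 1.89 RPKM in WT (log2 fold change -0.50 ± 0.26, adjusted p = 0.760, and -0.40 ± 0.30 without WT replicate 3).

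Hoxb9 had the largest fold change among the Hox genes tested. It lay at 5.11, 5.84 and 0.175 RPKM in the WT replicates and at 9.66, 16.6 and 14.9 RPKM in the DKO replicates, which means that the lowest DKO library was above the highest WT library. Its log2 fold change in edgeR was 1.89 ± 0.73 (adjusted p = 0.550), and 1.31 ± 0.25 without WT replicate 3 (adjusted p = 0.359). Within the libraries numbered 47347, 2 WT and 2 DKO, the DKO mean was 2.87-fold the WT mean. Fits on these 4 libraries were not planned and were added after the data were seen, so their p-values give no separate support. In edgeR the log2 difference within these 4 was 1.502 ± 0.20, just outside the call (adjusted p = 0.0525). DESeq2 on the same 4 libraries gave nearly the same value with an SE of 0.24 and an adjusted p of 7.29e-07, and an edgeR fit with no filter on low counts gave 1.87 ± 0.38 with an adjusted p of 0.00369. Over all 6 libraries DESeq2 gave 1.87 ± 1.15 with an adjusted p of 0.950.

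Within the libraries numbered 47347, Hoxb9 stood alone among the Hox genes at an unadjusted p under 0.05. Of the 29 tested, edgeR called 0 there, beside 0.0445% of 20247 genes, and at an unadjusted p under 0.05 it found 1 higher, Hoxb9, beside 3.24%, and 0 lower, beside 2.09%. The other 28 had log2 fold changes from -0.30 to 0.53, and the median of all 29 was 0.11. In the libraries numbered 40972, with 1 library of each genotype and so no test, the level in DKO replicate 1 relative to WT replicate 3 had a median log2 of 2.23 over paralogs 6 to 10 and of 0.30 over the tested paralogs 1 to 5.

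The nearest active neighbour, Hoxb8, did not show the separation seen for Hoxb9. Hoxb8 lay at 9.53, 9.02 and 0.663 RPKM in WT and at 5.82, 12.2 and 8.16 RPKM in DKO, with overlapping groups and a log2 fold change of 0.45 ± 0.67 (adjusted p = 0.953), which became -0.10 ± 0.28 without WT replicate 3. The level of Hoxb9 per level of Hoxb8 was 0.536, 0.648 and 0.264 in WT and 1.66, 1.36 and 1.83 in DKO. Each DKO library was thus above each WT library in this ratio, also among libraries of the same number; the ratio was chosen after the values of both genes were seen. On the other side of Hoxb9 lies Gm53, a transcript upstream of it on the same strand, with 354, 486 and 11 counts in WT and 82, 444 and 385 counts in DKO. It was low in the libraries numbered 40972 of both genotypes and gave a log2 fold change of 0.33 ± 0.86 (adjusted p = 0.972).

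**Figure D4:**
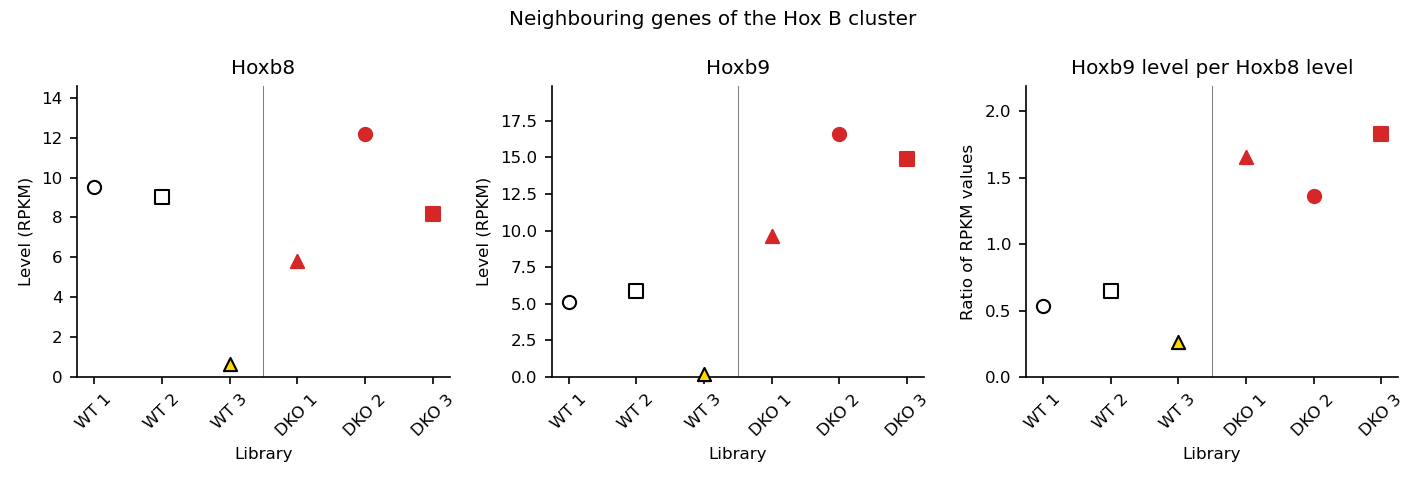
Level of Hoxb8 and of Hoxb9 in RPKM, and the ratio of Hoxb9 to Hoxb8, in each of the 6 libraries. Hoxb8 overlapped between the groups, whereas Hoxb9 was 9.66 to 16.6 RPKM in DKO and at most 5.84 RPKM in WT, and the ratio was at least 1.36 in DKO and at most 0.648 in WT.

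The other genes with a wide WT range, Hoxc8 apart, overlapped between the genotypes. Hoxa5 lay at 5.03, 10.9 and 7.86 RPKM in DKO, Hoxa6 at 4.06, 8.56 and 5.78 RPKM, and Hoxa7 at 4.10, 11.2 and 6.98 RPKM. DKO replicate 1 was the lowest in each, between WT replicate 3 and the others. The same order held for Hoxa9, with 46, 222 and 146 counts in DKO, and for Hoxa10, with 13, 58 and 23 counts. Hoxc9 gave 34, 187 and 108 counts, and Hoxb6 lay at 10.9, 26.6 and 16.9 RPKM. Over all 6 libraries the log2 fold changes of these 7 ran from 0.11 ± 0.71 for Hoxa7 to 0.74 ± 0.91 for Hoxc9, with adjusted p from 0.907 to 0.985 in edgeR. Without WT replicate 3 the log2 fold change of Hoxc9 was 0.13 ± 0.50 and that of Hoxb6 went from 0.67 ± 0.55 to 0.18 ± 0.32, while the 5 Hox A genes turned negative, from -0.27 for Hoxa6 to -0.46 for Hoxa10. Hoxc9, Hoxa9 and Hoxa10 were at 3 counts or fewer in WT replicate 3. Over all 6 libraries DESeq2 gave them log2 fold changes of 0.71, 0.13 and 0.12, near the 0.74, 0.16 and 0.15 of edgeR. Hoxc10, at 0 counts in that library, had 0.14 ± 1.08 in edgeR and 0.09 in DESeq2. It turned to -0.48 in edgeR without WT replicate 3. No fold change over all 6 libraries is a bound for these genes. The leading genes of the Hox D cluster and the neck-level Hoxb4 also overlapped between the groups. Hoxd8 lay at 11.01, 13.5 and 15.3 RPKM in DKO, Hoxd4 at 2.59, 3.48 and 2.89 RPKM, Hoxd9 at 1.09, 3.03 and 1.35 RPKM and Hoxb4 at 6.85, 10.8 and 7.39 RPKM.

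The levels of cell type markers in both groups are given beside these values. Of 14 skeletal muscle markers, all tested, 9 were higher in DKO at an unadjusted p under 0.05, beside 4.96% of all genes, with none at an adjusted p under 0.05. They summed to 604 to 688 RPKM in WT and to 2015, 1174 and 1068 RPKM in DKO, with none at the floor in every library. The median log2 fold change was 1.06, and 0.53 without DKO replicate 1. The dermal fibroblast markers had a positive log2 fold change in 10 of 10, with a median of 0.35 (0.18 without DKO replicate 1), beside 0.21 for the Hox genes, and 2 were higher at an unadjusted p under 0.05. Of the 8 keratinocyte markers 7 had a positive value, with a median of 0.27, and 2 were higher at an unadjusted p under 0.05. The adipocyte markers summed to 430 to 648 RPKM in WT and to 1024, 508 and 415 RPKM in DKO, with DKO replicate 1 above all the others. The part of these cell types in the Hox values was not tested.

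Hoxc13 and the hair genes were both low in 1 DKO library. Hoxc13 lay at 29.9, 53.8 and 44.7 RPKM in DKO, so replicate 1 was below the 47.3 to 52.5 RPKM of WT while the others were near or above it. The log2 fold change was -0.21 ± 0.19 with an adjusted p of 0.924, and 0.02 ± 0.16 within the libraries numbered 47347. The 14 hair genes linked to Hoxc13, among them hair keratins, keratin-associated proteins and the regulator Foxn1, summed to 1383 to 1416 RPKM in WT and to 445, 1783 and 1157 RPKM in DKO. None of the 14 had an unadjusted p under 0.05 in edgeR, beside 4.96% of all genes higher and 2.54% lower. Only 1 of the 14 had a positive log2 fold change. The median of -0.29 was -0.26 without WT replicate 3 and became 0.01 without DKO replicate 1. The smallest p belonged to Krt84, a hair and tongue keratin, at 7.45, 8.51 and 5.26 RPKM in WT and 1.31, 6.02 and 5.33 RPKM in DKO (adjusted p = 0.815). Krtap8-1, a keratin-associated protein of the hair shaft, lay at 248, 223 and 258 RPKM in WT and 51.6, 220 and 191 RPKM in DKO, without overlap but with an adjusted p of 0.830. Padi3, which modifies hair proteins, lay at 75.3, 76.8 and 73.1 RPKM in WT and 29.8, 80.8 and 58.9 RPKM in DKO.

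**Figure D5:**
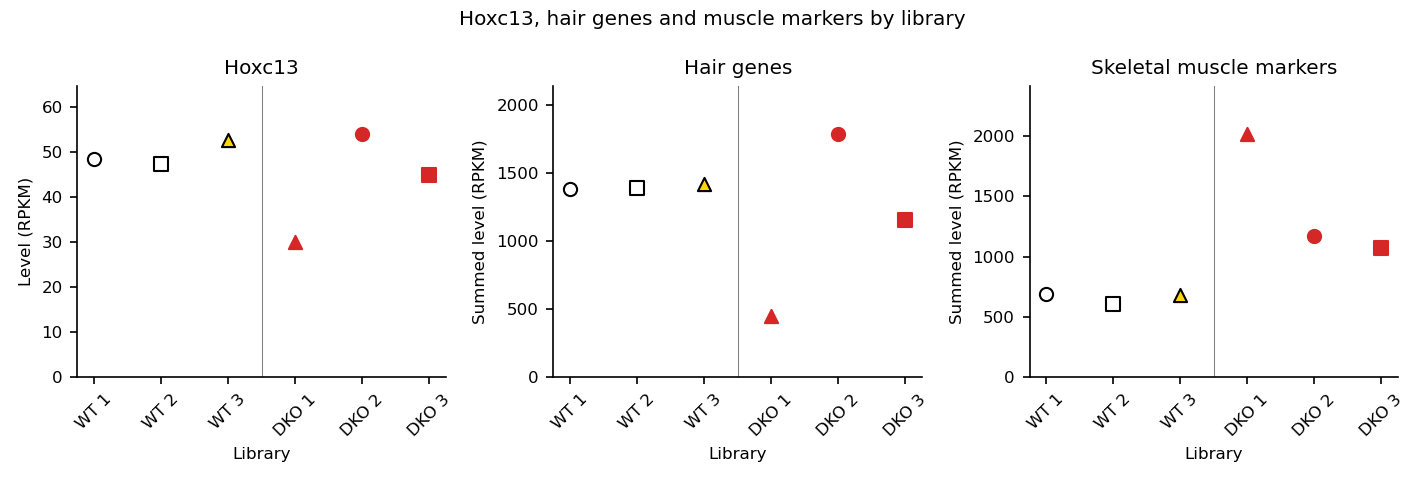
Level of Hoxc13, summed level of 14 hair genes linked to it and summed level of 14 skeletal muscle markers, in RPKM for each library. DKO replicate 1 was lowest for Hoxc13 (29.9 RPKM) and the hair genes (445 RPKM) and highest for the muscle markers (2015 RPKM).

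HOX proteins bind DNA together with homeodomain partners of the TALE class, the PBX, MEIS and PREP proteins. Of 9 TALE genes, 8 were tested, and 3 were higher in DKO at an unadjusted p under 0.05, beside 4.96% of all genes, and 0 lower, beside 2.54%, with none at an adjusted p under 0.05. Meis3 lay at 0.889, 0.670 and 1.15 RPKM in WT and 1.80, 1.67 and 1.16 RPKM in DKO (log2 fold change 0.76 ± 0.29, adjusted p = 0.546). Meis1, the most studied MEIS gene, lay at 3.77, 3.95 and 4.35 RPKM in WT and 5.44, 4.996 and 4.75 RPKM in DKO (0.33 ± 0.13 in log2, adjusted p = 0.574). Pknox2, which encodes a PREP protein, lay at 0.585, 0.606 and 0.562 RPKM in WT and 0.771, 0.963 and 0.698 RPKM in DKO (log2 fold change 0.47 ± 0.20, adjusted p = 0.641). The DKO libraries were above the WT libraries in all 3, beside 7.24% of all genes and for Meis3 by little, and WT replicate 3 was not low in any of the 3 as it was in the posterior Hox genes.

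Among 25 other transcription factors that mark body position, 20 were tested and 4 were higher in DKO at an unadjusted p under 0.05, beside 4.96% of all genes, and 0 lower, beside 2.54%. The smallest p was that of Isl1, a LIM homeodomain gene of hindlimb and genital tissue, at 0.288, 0.169 and 0.0997 RPKM in WT and 0.612, 0.624 and 0.596 RPKM in DKO. Its log2 fold change was 1.73 ± 0.41 and its adjusted p was 0.253. Alx4, a gene of craniofacial and anterior limb mesenchyme that also acts in hair follicles, lay at 3.98, 3.75 and 3.80 RPKM in WT and 5.72, 5.89 and 4.84 RPKM in DKO (adjusted p = 0.333). Lmx1b, the dorsal limb gene, lay at 0.482, 0.516 and 0.543 RPKM in WT and 0.781, 1.06 and 1.01 RPKM in DKO (adjusted p = 0.342). The hindlimb gene Pitx1 and the forelimb gene Tbx5 did not pass the filter on low counts.

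Of 23 upstream regulators of Hox genes, such as Polycomb and MLL genes, CDX factors and enzymes of retinoic acid, 17 were tested, and 1 was higher in DKO at an unadjusted p under 0.05, beside 4.96% of all genes, and 0 lower, beside 2.54%. It was Cyp26b1, which breaks down retinoic acid, at 17.8, 17.7 and 16.2 RPKM in WT and 22.2, 24.4 and 21.5 RPKM in DKO (log2 fold change 0.40 ± 0.12, adjusted p = 0.379). Gdf11, a ligand that shifts Hox borders in the trunk, lay at 2.10, 1.93 and 2.87 RPKM in WT and 3.33, 3.15 and 2.47 RPKM in DKO, and Kmt2a, an MLL methyltransferase that keeps Hox genes active, lay at 13.3, 15.1 and 14.6 RPKM in WT and 15.1, 19.0 and 15.1 RPKM in DKO. The groups overlapped in both. Cdx2 and Cdx4 had 0 counts in every library. Cdx1 had 0 counts in all 3 WT libraries and 2, 29 and 19 counts in the DKO replicates; it did not pass the filter and is named because its values were seen.

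The clusters also hold 46 other genes, mostly noncoding or antisense, of which 14 were tested. In edgeR 0 of the 14 had an unadjusted p under 0.05, beside 4.96% of all genes higher and 2.54% lower. Every DKO library was above every WT library for Gm28230 (adjusted p = 0.745), beside 7.24% of all genes. For Gm15050 every DKO library was below (adjusted p = 0.897), beside 5.96%. Beside Gm53, the most abundant in WT were Hoxd3os1, an antisense gene of the Hox D cluster with 159, 157 and 102 counts in WT and 122, 120 and 129 counts in DKO, and Gm11536 of the Hox B cluster, with 67, 117 and 68 counts in WT and 63, 61 and 70 counts in DKO. Both overlapped between the groups, and neither was as low in WT replicate 3 as Gm53, which was at 11 counts there.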

How the data were processed

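Total RNA of whole skin was depleted of rRNA and sequenced in pairs. The authors trimmed reads with Trimmomatic v0.36, mapped them to GRCm38 with STAR v2.5.2b and deposited raw counts per gene, made with featureCounts of Subread v1.5.2, with the counted length of each gene. Symbols were found for 48970 of 49315 gene identifiers (99.3%). Library totals of 11263863 to 17643043 counts limit genes under the floor of 3 counts, and floors cover counting error only.

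Counts were tested in edgeR 4.0.16 (R 4.3.3) with its filter on low counts, TMM scaling and the quasi-likelihood F test, WT against DKO, adjusted by Benjamini-Hochberg over 20168 genes. A call needed an adjusted p under 0.05 and an absolute log2 fold change above 1. All p-values are two-sided. The quasi-likelihood test reports no SE. The SE beside an edgeR value is the absolute log2 fold change divided by the square root of the F statistic. DESeq2 reports its own SE, so the SEs of the tools are not the same statistic. At 3 libraries a group, permuting the labels exactly gives a smallest p of 0.1 for 1 value. RPKM used TMM-scaled totals. DESeq2 1.42.0 (the tool the study used), other scalings and filters, the number in the titles as a block, and each library left out were alternatives. The scripts were tested on simulated data. Replicates are numbered in the order of the deposit.

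Values in every library are given for the 3 highest WT levels of each cluster, the 6 smallest p, genes with a more than 4-fold WT range, Hoxc13, the 3 smallest p of each list on Hox biology, and the 3 most abundant other cluster genes. Members and lists were chosen with earlier results of these data known. One hair keratin of the lists was not analysed here.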

Additional observations from a re-analysis of the deposited data

How the results depend on the processing

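Under 12 planned and 3 added alternatives of the fit, the latter chosen after seeing the data, no Hox gene was called except Hoxb9, the 1 gene called with no filter on low counts and in DESeq2 on the libraries numbered 47347. The number of Hox genes at an unadjusted p under 0.05 ran from 2 to 4 with each library left out, was 2 without WT replicate 2 and without WT replicate 3, and was 1 in edgeR and in DESeq2 on the libraries numbered 47347. The WT share of paralogs 6 to 10, 40.3%, was 28.2% with the noncoding and antisense genes of the clusters added to the sum and 58.3% with Hoxc13 left out of it, an alternative added after seeing the data. The median log2 ratio of the highest to the lowest WT library over the tested Hox genes was 1.13, and 0.17 to 1.01 with each WT library left out, lowest without WT replicate 3. The causes of these shifts were not tested.

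Of 294 log2 fold changes of 20 named Hox genes under the alternatives, 266 kept their direction and 28 turned it. With each library left out, those that turned ran from -0.63 to 0.76 for Hoxa10, -0.31 to 0.38 for Hoxa5, -0.27 to 0.69 for Hoxa6, -0.44 to 0.56 for Hoxa7, -0.44 to 0.88 for Hoxa9, -0.10 to 0.83 for Hoxb8, -0.89 to 0.66 for Hoxc10, -0.019 to 0.30 for Hoxd4, -0.089 to 0.45 for Hoxd8 and -0.35 to 0.45 for Hoxd9. The turns came without WT replicate 3 or without DKO replicate 2. On the libraries numbered 47347, edgeR and DESeq2 gave -0.16 and -0.15 for Hoxa10, -0.079 and -0.082 for Hoxa5, -0.059 and -0.061 for Hoxa6, -0.16 and -0.16 for Hoxa7, -0.072 and -0.076 for Hoxa9, and 0.022 and 0.020 for Hoxc13.

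With the number in the titles as a replicate block, edgeR called 0 Hox genes and put 6 at an unadjusted p under 0.05, with a median log2 fold change of 0.34 over the Hox genes and 2.34 for Hoxb9 (adjusted p = 0.168). DESeq2 with the block also called 0 and put 6 at an unadjusted p under 0.05. The share of all genes at this p was counted only for the main edgeR fit and for edgeR on the libraries numbered 47347. Counts of Hox genes under the other alternatives thus have no such share beside them and are not read as a result. The deviations of same-numbered libraries from their group means had an r of 0.23 for WT replicate 3 and DKO replicate 1 and of -0.02 to 0.17 within 47347, across 20168 genes, and those of libraries of different numbers an r of -0.15 to -0.10. Deviations within a group sum to 0, so a positive r for some pairs forces a negative r for others, and the contrast is partly built in. Depth limits the genes at or below 3 counts.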
